A study of Mus musculus with 2 samples.

Results

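The protein genes of the large (60S) subunit of the cytosolic ribosome were followed in the liver of newborn mice. The group holds 45 genes, taken by symbol from a list of 60S proteins, of 43346 genes in the tables, and leaves out pseudogenes. Both libraries come from mice of the B6NCrl strain at postnatal day 0, with no treatment and no genetic change named: the single liver of pup 1 (replicate 1) and the single liver of pup 3 (replicate 2). The labels give both livers the same donor entry, so animal and technical spread cannot be told apart. Each library was made by SmartSeq, which amplifies cDNA by PCR, with an input of 13 pg, RNA above 200 nt plus spike-in RNAs, an amount the labels call 1 cell-equivalent. It is RNA of the tissue and not the RNA of a single cell, so fewer cells of a type and less RNA per cell cannot be told apart.

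A ribosome joins a small 40S subunit, which reads the mRNA, to a large 60S subunit, which forms the peptide bond and holds the tunnel through which the new chain leaves. The 60S proteins are made in the cytoplasm, enter the nucleolus and are built onto ribosomal RNA, as a rule as a single copy per subunit, with the acidic stalk proteins P1 and P2 as the known exception. Most of their mRNAs begin with a run of pyrimidines, the 5′ terminal oligopyrimidine or TOP tract, through which mTOR signalling and Larp1 set their translation together. Mammalian genomes also hold many processed pseudogenes of these genes, copies of spliced mRNA that lie elsewhere in the genome. A newborn liver grows, secretes plasma proteins and still makes blood cells, and all of these need ribosomes.

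Copies bear on many of the values below, because reads that match a gene and its copy equally well are divided between them by estimation. The 3 pairs below differ at a single coding base inside the windows shown and are printed because they show how little separates gene and copy. Each window is 41 nt of GENCODE M21 transcript sequence, 5′ to 3′, with the differing base in capitals, and positions count from 1 at the first base of the member's start codon. The first pair is Rpl37 (chromosome 15, 5116645 to 5119140, GRCm38) and Rpl37rt (chromosome 5). Over the 344 nt that align, of 682 nt in Rpl37rt, they differ by G249A.
Rpl37: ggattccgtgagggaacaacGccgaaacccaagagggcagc
Rpl37rt: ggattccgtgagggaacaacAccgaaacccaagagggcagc
Rpl35 (chromosome 2, 39001580 to 39005624) and Gm2000, an intronless gene annotated as protein coding on chromosome 1, differ by C117T and by 1 further base outside the coding part.
Rpl35: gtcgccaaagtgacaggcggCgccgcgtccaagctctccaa
Gm2000: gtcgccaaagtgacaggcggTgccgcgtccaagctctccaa
Rpl11 (chromosome 4, 136028265 to 136053428) and Gm10288 (chromosome 3) differ by G86A.
Rpl11: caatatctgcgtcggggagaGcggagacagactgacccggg
Gm10288: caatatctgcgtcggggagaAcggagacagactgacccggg
Within the aligned stretch, only reads that cover such a base tell the members of a pair apart. Reads from outside that stretch can also do so. Of the 15 copies at 100 TPM or more, 11 have no mismatch to their gene over the aligned stretch.

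The tables held 56959836 expected counts for pup 1 and 35973980 for pup 3, of which 54817565 and 34792898 were endogenous. An expected count is an estimated number of reads, and TPM is the share of transcripts after correction for effective length, here set to sum to 1000000 without the spike-ins. Marker genes fixed for the tissue were present: all 5 hepatocyte markers and all 5 erythroid markers were at 1 TPM or more in both libraries. Hepatocyte markers summed to 11.9% of TPM in pup 1 and 10.1% in pup 3, and erythroid markers to 13.2% and 16.3%. Granulocyte markers summed to 0.489% and 0.770%, macrophage markers to 0.0576% and 0.0764%, megakaryocyte markers to 0.0640% and 0.0866%, B lymphocyte markers to 0.00950% and 0.0229%, and endothelial markers to 0.0230% and 0.0115%. Of these markers, Itga2b and Kdr were under 1 TPM in pup 1 and above it in pup 3. The erythroid share was higher and the 60S share lower in pup 3, and the part of cell makeup in the results below was not tested.

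Every 60S protein gene was detected: all 45 stood at 1 TPM or more in both libraries, where 46.3% of the 7678 genes detected in either library reached that level in both. At 10 TPM or more in both, 44 remained, and Rpl5 was the exception. At 100 TPM or more in both, there were 39. By rank among all genes, 43 of the 45 lay in the first 1000 in pup 1 and 39 in pup 3.

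Together the 45 genes made up 2.91% of TPM in pup 1 and 1.96% in pup 3 (2.44 ± 0.674%, mean ± SD, n = 2, as for all means here). In expected counts the share was 768918 reads or 1.40% in pup 1 (95% Wilson interval 1.40% to 1.41%) and 358315 reads or 1.03% in pup 3 (1.03% to 1.03%). These intervals cover counting error only, and PCR copies of 1 molecule are counted as separate reads. The count share is lower than the TPM share in both libraries. The group is uneven: the 10 genes highest in each library, taken per library, held 46.0% of its TPM in pup 1 and 46.5% in pup 3.

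**Figure D1:**
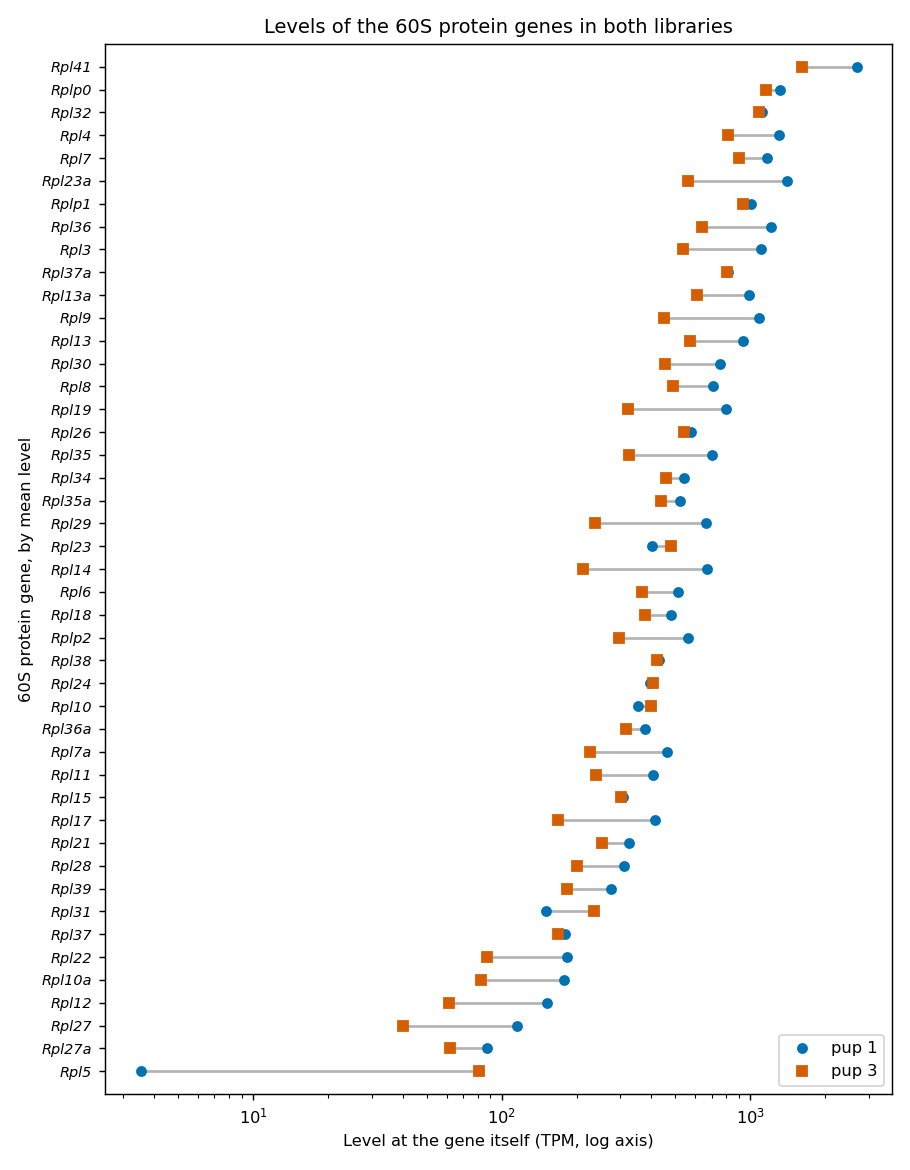
Level of each of the 45 genes of the 60S subunit proteins (TPM at the gene itself, log axis) in pup 1 (circles) and pup 3 (squares), joined by a line and ordered by mean level. Rpl41 is highest in both libraries, and Rpl5 spans the widest range, from 3.53 TPM in pup 1 to 80.8 TPM in pup 3.

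Rpl41 led the group. Rpl41 (chromosome 10, 128548114 to 128549305, minus strand), which encodes a very short basic peptide at the face between the subunits, stood at 2676 TPM in pup 1 and 1606 TPM in pup 3. It alone made up 9.19% and 8.20% of the group's TPM. Next by mean came Rplp0, whose level was 1316 TPM in pup 1 and 1157 TPM in pup 3. Rpl32 was nearly level between the pups, at 1112 and 1080 TPM. Rpl4 stood at 1305 and 812 TPM, and Rpl7 at 1164 and 901 TPM. These are the 5 genes with means above 1000 TPM, of which Rpl41 was above the rest in each liver. Rplp0 was above Rpl32, Rpl4 and Rpl7 in each liver as well, although the ranges of Rpl4 and Rpl7 over the 2 livers overlap that of Rplp0. Rpl32, Rpl4 and Rpl7 changed order between the livers, so their order is not resolved. Rpl23a, sixth by mean, stood above Rplp0 in pup 1, at 1410 TPM, and far below it in pup 3, at 560 TPM.

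At the other end stood Rpl5, Rpl27a, Rpl27, Rpl12 and Rpl10a. Rpl27a was at 87.1 TPM in pup 1 and 62.2 TPM in pup 3. Rpl27 was at 115 and 40.3 TPM. Rpl12 and Rpl10a are given with their parts of the ribosome below. The highest level was 757 times the lowest in pup 1 and 39.9 times in pup 3. On the log2(TPM + 1) scale the SD among the 45 genes was 1.47 in pup 1 and 1.18 in pup 3. Without Rpl5 it was 1.08 and 1.15, and among the 33 genes of the 40S list it was 0.85 and 0.91.

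The low end of this range coincides with the copies. A search of GENCODE M21 transcripts found, among the features in the tables, 305 copies of at least 95% identity to a member's coding transcript, 299 of them of a pseudogene type, and each of the 45 genes had at least 1. Rpl21 had the most, 43. Most were near silent in the tables: 102 had no counts in either library, 61 reached 1 TPM in both, and 15 had a mean of 100 TPM or more. Those 15 belong to 14 genes, and 8 of the 10 lowest 60S genes are among these 14. Over the whole group, 86.4% of the reads of genes and copies together were placed at the genes in pup 1 and 84.9% in pup 3. For 31 genes the share was 90% or more in both libraries, and for Rpl5, Rpl27, Rpl27a, Rpl12, Rpl28 and Rpl15 it was under 50% in both.

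**Figure D2:**
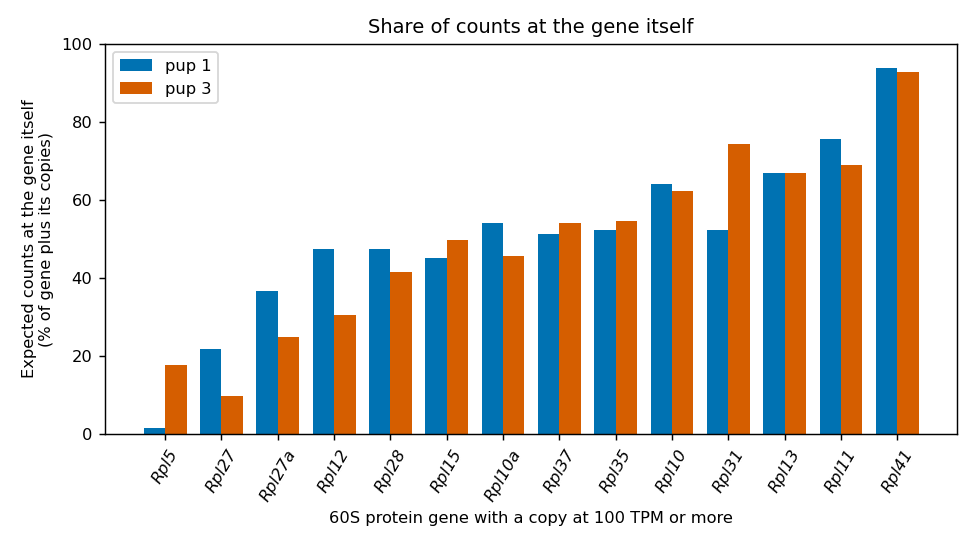
Expected counts placed at the gene itself, as a percent of those of the gene and its near-identical copies, in pup 1 and pup 3, for the 14 genes with a copy at a mean of 100 TPM or more. The bars run from 1.51% for Rpl5 in pup 1 to 94.0% for Rpl41 in pup 1.

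Rpl5 is the clearest case. Rpl5 (chromosome 5, 107900502 to 107909005, plus strand) held 270 expected counts in the first liver and 1705 in that of pup 3, whereas Gm15500, a transcribed processed pseudogene on chromosome 7 (114705217 to 114706235, minus strand), had 17576 and 7961. The copy matches the Rpl5 transcript without a mismatch over 1018 nt. It stood at 458 TPM in pup 1 and 308 TPM in pup 3. Only 1.51% of the joint reads were placed at Rpl5 in pup 1 and 17.6% in pup 3. Summed with its copies, Rpl5 came to 462 and 389 TPM and moved from place 45 to place 35 among the 60S genes.

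The same arrangement held for several others. For Rpl27 the copies Rpl27-ps3 and Gm11518 each match over 411 nt without a mismatch. With copies, Rpl27 came to 719 and 582 TPM and moved from place 43 to place 19. Rpl27a with Gm7536 and its other copies came to 549 and 635 TPM. Rpl15, at 308 and 301 TPM on its own, came to 873 and 864 TPM with Rpl15-ps3 and others. Rpl28, at 311 and 201 TPM, came to 842 and 606 TPM with Rpl28-ps1 and others. Rpl37, at 180 and 169 TPM, came to 839 and 718 TPM with the Rpl37rt sequence shown above. Rpl35, at 700 and 325 TPM, came to 1540 and 673 TPM with Gm2000 and others, which put it in place 4. Here and below, levels and places with copies sum TPM, with each copy's reads at the copy's own length, unless stated otherwise. With those reads set at the gene's own length, the levels of these genes were lower. Rpl27 then came to 527 and 409 TPM, Rpl27a to 238 and 249 TPM and Rpl15 to 682 and 603 TPM. Rpl28 came to 655 and 485 TPM, Rpl37 to 350 and 311 TPM and Rpl35 to 1337 and 593 TPM. With the TPM of copies summed, the group's sum was 3.59% of TPM in pup 1 and 2.49% in pup 3. The log2 SD among the genes was then 0.77 and 0.82, and the highest stood 15.9 and 20.2 times above the lowest, which was now Rpl22 at 182 and 87.2 TPM. Whether reads at the copies come from the gene or from the copy cannot be told from these tables.

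Read pup against pup, most 60S protein genes stood lower in pup 3. The ratio used is log2 of (TPM + 1) in pup 3 over pup 1, which understates differences of low genes. Its median over the 45 genes was -0.59, with quartiles at -1.04 and -0.10, against -0.04 over the 8120 genes that passed a filter (10 or more expected counts on average). Of the 45 genes, which all passed this filter, 40 were lower in pup 3 (background 50.7%). A 2-fold or larger difference was found in 14: 13 were lower (background 34.5%) and 1, Rpl5, was higher (background 33.1%), and 31 were within 2-fold. The share that was 2-fold lower thus lay below the background, and the share lower at all lay above it.

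Most genes in the tables are far scarcer than ribosomal protein genes, so the genes that average 100 TPM or more make a closer background. Of these 1096 genes, 45.5% were lower in pup 3, 12.4% were 2-fold or more lower and 20.7% were 2-fold or more higher, with a median ratio of 0.11. The 42 members at that level had a median of -0.61, with 38 lower, 12 of them 2-fold or more, and none 2-fold higher. With 1 group of 2 livers there is no contrast to test, and the ratios describe these libraries. The 20 spike-in RNAs at 100 TPM or more had a median ratio of -0.33, and 19 were within 2-fold. Scaling by spike-in totals moved all ratios by 0.25 and gave 31 lower and 14 higher members, with 8 members 2-fold lower. The median of the members was then -0.35, against 0.36 for the genes at 100 TPM or more. With edgeR TMM factors the ratios moved by -0.26, and 43 members were lower and 2 higher. The medians were then -0.85 for the members and -0.15 for the genes at 100 TPM or more. Shares of lower genes in the background were not counted under these scalings.

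**Figure D3:**
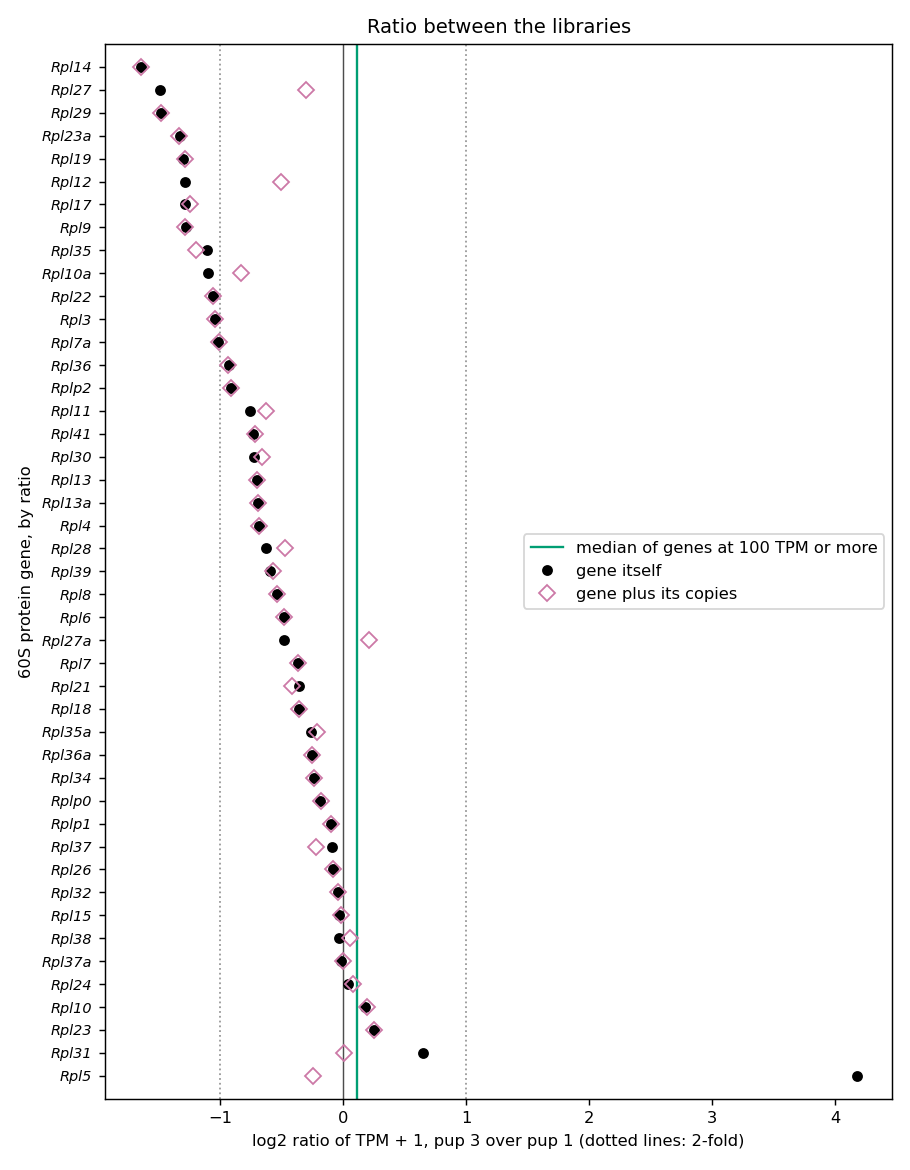
log2 ratio of TPM + 1, pup 3 over pup 1, for each 60S protein gene alone (filled circles) and summed with its copies (open diamonds), ordered by the ratio of the gene alone. Dotted lines mark 2-fold and the green line the median of 0.11 for genes at 100 TPM or more. Rpl5 lies at 4.17 alone and at -0.25 with the TPM of its copies summed.

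The largest differences toward pup 1 were those of Rpl14, Rpl27, Rpl29, Rpl23a and Rpl19. Rpl14 (chromosome 9, 120571444 to 120574654, plus strand) stood at 669 TPM in pup 1 and 213 TPM in pup 3, 3.14 times higher in pup 1. It has few copy reads, with 94.8% and 94.5% placed at the gene. Rpl29, a 60S protein whose loss gives small mice, stood at 666 and 237 TPM with a ratio of -1.48, and Rpl23a at 1410 and 560 TPM with a ratio of -1.33. The ratio of -1.49 for Rpl27, by contrast, was -0.31 with its copies.

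In the other direction stood Rpl5, Rpl31, Rpl23, Rpl10 and Rpl24, the 5 genes that were higher in pup 3. Rpl5, from 3.53 to 80.8 TPM, had a ratio of 4.17 alone. With its copies it was -0.25 when their TPM was summed and 0.97 when their reads were set at the length of Rpl5, which differs between the libraries with its leading transcript. Rpl31 was at 150 TPM in pup 1 and 236 TPM in pup 3, a ratio of 0.65, which became 0.00 with its copies. Rpl23 had a ratio of 0.25, Rpl10 of 0.18 and Rpl24 of 0.04, and with copies these were 0.25, 0.19 and 0.08. With the TPM of copies summed, 39 of the 45 genes were lower in pup 3, 10 of them 2-fold or more, and none was 2-fold higher. The median was then -0.48, and Rpl5, Rpl27a and Rpl38 had changed sides of 0. With reads at the gene's own length, 38 were lower and Rpl5 kept its side.

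The P stalk, which recruits elongation factors to the ribosome, is built from the products of Rplp0, Rplp1 and Rplp2, with the product of Rpl12 at its base. Rplp1 stood at 1003 TPM in pup 1 and 936 TPM in pup 3, a ratio of -0.10. Rplp0, given above, had a ratio of -0.19. Rplp2 stood at 560 and 297 TPM, a ratio of -0.91. The 3 stalk genes proper thus stood unequal to each other in both libraries, and Rplp2, whose product pairs with that of Rplp1, was the lowest of them. Rpl12 was at 152 and 61.6 TPM, with 47.4% and 30.5% of its reads at the gene and most of the others at Gm10275, which matches over 634 nt without a mismatch. With copies it came to 376 and 265 TPM. All 4 genes were lower in pup 3, 1 of them 2-fold. Over the 45 genes, 88.9% were lower and 28.9% were 2-fold lower. Over all genes of the filter these shares were 50.7% and 34.5%. Rpl10a, which forms the mobile L1 stalk where used tRNA leaves, stood at 178 and 82.5 TPM, a ratio of -1.10 that was -0.83 with its copies.

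Rpl5 and Rpl11 form the 5S particle with 5S ribosomal RNA, which also binds Mdm2 and so links ribosome assembly to p53. Rpl11 stood at 405 TPM in pup 1 and 239 TPM in pup 3, a ratio of -0.76. Rpl5, at 3.53 and 80.8 TPM, went the other way. With the TPM of copies summed, both were lower in pup 3, Rpl11 at 595 and 384 TPM and Rpl5 at 462 and 389 TPM. With the copies' reads set at each gene's own length instead, they differed in direction again, Rpl11 at 536 and 346 TPM and Rpl5 at 234 and 458 TPM.

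Around the exit tunnel, 7 of 8 genes were lower in pup 3, 4 of them 2-fold, with a median ratio of -0.89. The shares over the 45 genes were 88.9% and 28.9%, and over all genes of the filter 50.7% and 34.5%. Rpl4 and Rpl17 encode proteins that line the tunnel. Rpl17 stood at 414 TPM in pup 1 and 169 TPM in pup 3. Rpl39, whose small product sits near the tunnel's exit, stood at 276 and 183 TPM. On the rim, where the signal recognition particle and the secretory channel dock, Rpl19 stood at 797 and 323 TPM, a ratio of -1.30, and Rpl35, given above, had a ratio of -1.11. Rpl26 was at 575 and 541 TPM. Rpl31 was the only one of the 8 that was higher in pup 3. Neighbours on the rim therefore differed: Rpl23a was 2.52 times higher in pup 1, and Rpl26 differed by a ratio of -0.09.

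Near the peptidyl transferase centre and the tRNA sites, 3 of 4 genes were lower in pup 3 (88.9% of the 45 genes, 50.7% of all genes). Rpl3, whose product reaches into the catalytic centre, stood at 1104 TPM in pup 1 and 535 TPM in pup 3, a ratio of -1.04. Rpl8 stood at 709 and 488 TPM. Rpl36a, whose product lies at the exit site for tRNA, stood at 376 and 315 TPM. Rpl10, which encodes a protein that joins last, in the cytoplasm, stood at 353 and 400 TPM. It has 7 copies, and 64.2% and 62.3% of the joint reads were placed at Rpl10.

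The bridges between the subunits gave no common direction: of Rpl19, Rpl24, Rpl41, Rpl23 and Rpl30, 3 were lower in pup 3, 1 of them 2-fold. The shares over the 45 genes were 88.9% and 28.9%, and over all genes of the filter 50.7% and 34.5%. Rpl24 stood at 394 and 406 TPM. Rpl23, whose product is the docking site of the assembly factor Eif6, stood at 403 TPM in pup 1 and 480 TPM in pup 3. Rpl30 stood at 756 and 456 TPM. No copy reads were listed for Rpl23, and 97.1% and 95.5% of the joint reads were placed at Rpl24.

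Several of these genes are known from mouse mutants. Rpl38, mutated in Tail-short mice and known for its part in the translation of Hox mRNAs, stood at 429 TPM in pup 1 and 420 TPM in pup 3. Rpl24, mutated in Belly spot and tail mice, also differed little, as given above. Rpl22, which T cell development needs, stood at 182 and 87.2 TPM, a ratio of -1.06. Rpl27a, mutated in sooty foot ataxia mice, had a ratio of -0.48 alone and 0.21 with copies. The other 14 genes, Rpl6, Rpl7a, Rpl9, Rpl13, Rpl13a, Rpl15, Rpl18, Rpl21, Rpl28, Rpl34, Rpl35a, Rpl36, Rpl37 and Rpl37a, had means from 174 TPM (Rpl37) to 925 TPM (Rpl36). All 14 were lower in pup 3, by ratios from -1.27 (Rpl9) to -0.02 (Rpl37a), and 2 of them, Rpl9 and Rpl7a, were 2-fold lower. Over the 45 genes the shares were 88.9% and 28.9%, and over all genes of the filter 50.7% and 34.5%.

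The order of the genes was similar in both livers. Across the 45 genes, log2 levels in the libraries correlated with r of 0.80 (Pearson) and rho of 0.87 (Spearman), and with 0.88 and 0.86 without Rpl5. With the TPM of copies summed, r was 0.81 and rho was lower, at 0.78. These are correlations across genes, which are not independent replicates, and both libraries share the length model and the division of reads among copies. The ratio had almost no rank relation to the level (rho of -0.03) or to effective length (rho of -0.06).

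Transcripts annotated as protein coding held 91.4 ± 0.223% of the group's summed TPM. Gene by gene, 35 of the 45 had 90% or more in them in both libraries. Rpl12, Rpl13a and Rpl35 had under 50% in both. For Rpl35 the processed transcript Rpl35-203 held 89.55% of the gene's TPM in pup 1 and 90.2% in pup 3. For Rpl12 the transcript Rpl12-201, annotated as a target of nonsense-mediated decay, held 82.05% and 77.6%. For Rpl13a most of the remainder was in transcripts that are not in the later M21 annotation, so that their type is unknown here.

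In 39 genes the same transcript led in both livers, and in Rpl5, Rpl22, Rpl23, Rpl27, Rpl29 and Rpl38 it did not. Rpl5-201 held 90.7% of Rpl5 in pup 1 and 0.22% in pup 3, where Rpl5-206 held 99.1%. Rpl22-201, a short form of 474 nt, held 75.6% and 25.3%, and Rpl22-204, of 2051 nt, 24.2% and 65.2%. Because the longer form led in pup 3, the ratio of Rpl22 depends on the unit: it was -1.06 in TPM and 0.084 in CPM, the count share without a length correction. Rpl29-201 held 67.6% and 8.99%, and Rpl29-203 held 32.4% and 91.0%. These percents are estimates from short reads that the transcripts share, and no spread of their own is at hand beyond the pair of livers.

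**Figure D4:**
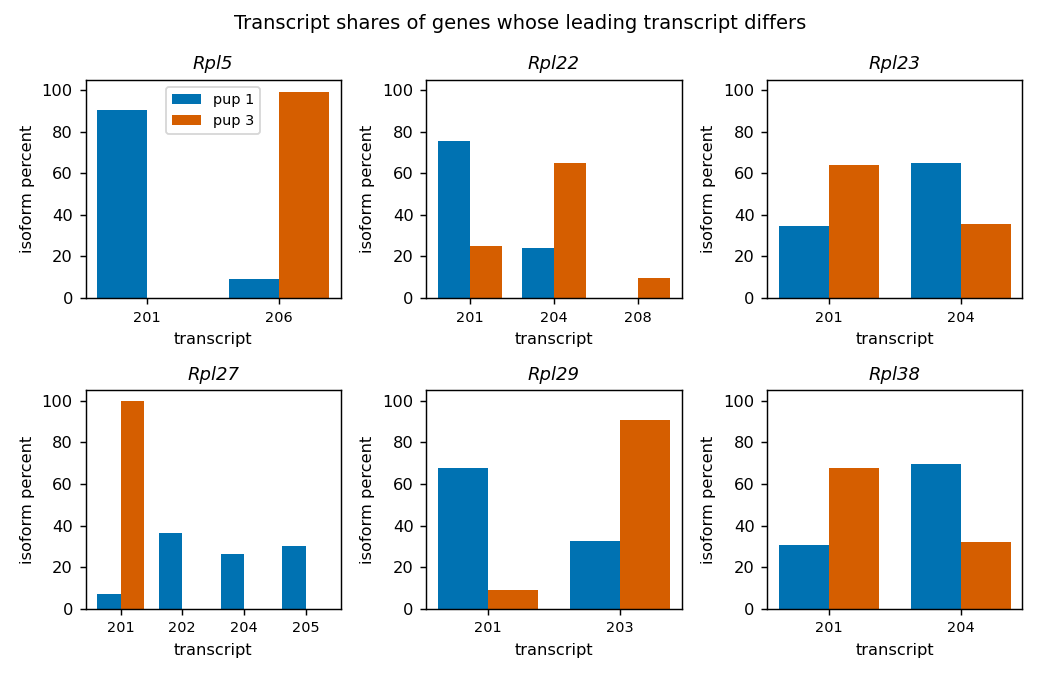
Isoform percent (share of a gene's TPM held by a transcript) in pup 1 and pup 3 for the 6 genes whose leading transcript differs, showing up to 4 transcripts that reach 5% in either library, named by their number. In Rpl5 transcript 201 leads in pup 1 with 90.7% and transcript 206 in pup 3 with 99.1%.

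Other genes of the translation machinery were set beside the group. The 33 genes of the 40S list made up 2.37% of TPM in pup 1 and 1.67% in pup 3, so the 60S sum was 1.23 times the 40S sum in pup 1 and 1.17 times in pup 3 (1.20 ± 0.0382). Per gene, the mean 60S level was 647 and 435 TPM and the mean 40S level 719 and 506 TPM. Of the 33 40S genes, 24 were lower in pup 3, 7 of them 2-fold, and 1 was 2-fold higher, with a median ratio of -0.46. Of 16 other mRNAs known to carry a TOP tract, such as Eef1a1 at 3335 and 2335 TPM, 12 were lower, 5 of them 2-fold, and 1 was 2-fold higher, with a median of -0.47. Over all genes of the filter, 50.7% were lower, 34.5% were 2-fold lower and 33.1% were 2-fold higher. Among genes that average 100 TPM or more these shares were 45.5%, 12.4% and 20.7%. Of the paralogs, Rpl22l1 stood at 287 and 133 TPM, beside 182 and 87.2 TPM for Rpl22, while Rpl36al went the other way, at 184 and 452 TPM. Rpl3l, Rpl10l and Rpl39l, known from muscle and testis, had no counts in either library, where 3 counts, the limit a count of 0 allows, are 0.0547 CPM for pup 1 and 0.0862 CPM for pup 3.

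Genes that build the subunit were set beside it as well. Of 30 assembly and export factors of the 60S subunit, 25 passed the filter and 10 were at 1 TPM or more in both libraries. Of the 25, 13 were lower and 12 higher in pup 3, with 9 past 2-fold each way and a median of -0.32, shares near those over all genes (50.7% lower, 34.5% 2-fold lower and 33.1% 2-fold higher). Gnl2, a nucleolar GTPase of 60S assembly, stood at 70.6 and 245 TPM, and Eif6, which keeps the subunits apart, at 100.1 and 108 TPM. Of 21 RNA polymerase I and pre-rRNA factors, 12 passed the filter, 10 of them lower, 5 by 2-fold or more, and 2 higher by 2-fold or more, with a median of -0.67. Ncl, the nucleolar protein nucleolin, stood at 315 and 78.9 TPM. Of 12 genes of the control of TOP mRNAs, 9 passed, 4 lower (2 of them 2-fold) and 5 higher (4 of them 2-fold), with a median of 0.17. The mitochondrial large subunit, a separate ribosome, had 48 of 49 listed genes in the tables and 46 past the filter. Of these, 23 were lower and 23 higher, 15 and 12 of them 2-fold, with a median of 0.00. The shares over all genes, given above, are the background for each of these lists.

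**Figure D5:**
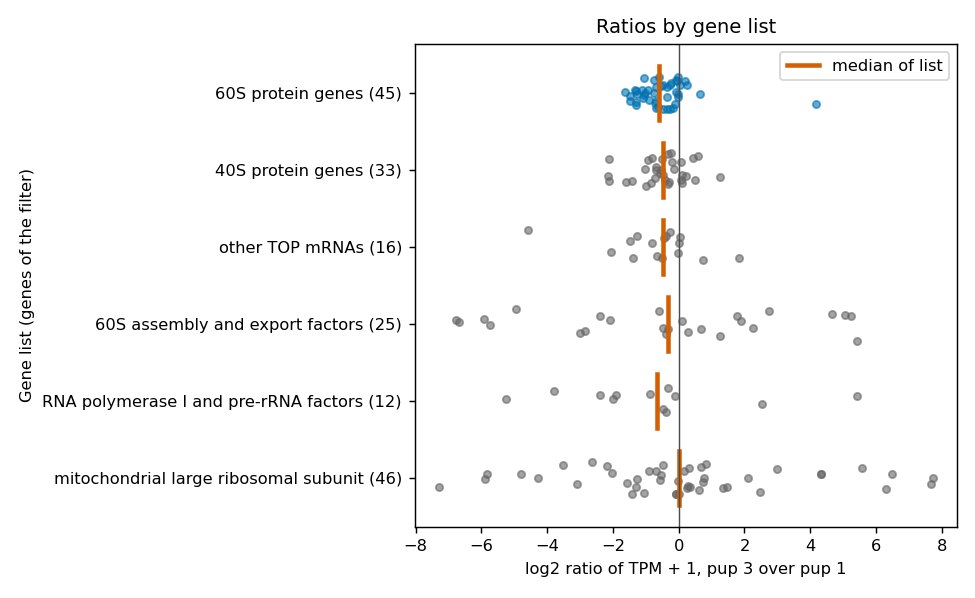
log2 ratio of TPM + 1, pup 3 over pup 1, for the genes of 6 lists that average 10 or more expected counts, with the number of genes in brackets and the median of each list as a bar. Medians run from -0.67 for the RNA polymerase I and pre-rRNA list to 0.00 for the mitochondrial large subunit, and the 60S genes at -0.59 lie close together apart from Rpl5.

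Promoter sequence was at hand for 34 of the 45 genes, from RefSeq on GRCm38.p6, in 40 windows. The letters CTTTC, a core of many TOP tracts, were found on the sense strand within 50 nt of an annotated start in 62.5% of these windows (23 genes), against 12.8% of all 32851 windows of that length. Windows of 30 nt, 25 before the start and 5 from it on, are shown for a high gene (Rpl4), the 5S particle gene Rpl5, a stalk gene (Rplp2), the level gene Rpl38 and Rpl14, the gene with the largest difference toward pup 1, with the motif in capitals where it occurs. The same windows were cut for Rpl41, Rplp0, Rpl35, Rpl27 and Rpl27a, which are not printed. Of these only Rpl35 holds the motif within its 30 nt, so the printed choice overstates how often it occurs there.
Rpl4 (chr9:64173362-64173391, plus strand): tgacaagtCTTTCcttttcctgtgggagca
Rpl5 (chr5:107900503-107900532, plus strand): agccactCTTTCtcacgtcgcttgcgtgct
Rplp2 (chr7:141447626-141447655, plus strand): ccccgcccactgcgtcagcgtcttcCTTTC
Rpl38 (chr11:114668555-114668584, plus strand): accgtccggaagcggaagcctcgttCTTTC
Rpl14 (chr9:120571492-120571521, plus strand): gcgcacggcagggcgggccctctctcttct
In Rplp2 and Rpl38 the motif begins at the RefSeq start, and in Rpl4 and Rpl5 it lies before that start. The annotations differ for Rpl5: its GENCODE gene starts at 107900502, before the window, so the motif lies inside that gene. Genes with the motif shown include both a nearly level one (Rpl38) and one with a ratio of -0.91 (Rplp2). Over the whole 300 nt windows and both strands, CCGGAAG, the core that Ets factors such as Gabpa bind, was found in 35.0% of the windows of the group and 8.86% of all windows. GGGCGG, the core of Sp1 sites, was found in 65.0% and 35.7%, and the E-box CACGTG in 17.5% and 7.15%. A match is a description of the letters and not a site in use, and the motifs were chosen after values were seen.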

How the data were processed

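RNA-seq tables of 2 newborn mouse livers (pup 1, replicate 1, and pup 3, replicate 2) were analysed. Extraction used a mirVana kit and libraries were made by SmartSeq, per the labels' protocols. Per the deposited notes, values refer to mm10 with GENCODE M4. Aligner and counting program: not given in the sources used here. The columns carry the names of RSEM output. The authors deposited expected counts (estimated reads, not whole), TPM and posterior mean TPM, and, per transcript, isoform percent. Use of strand is likewise not stated.

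TPM was set to sum to 1000000 after spike-ins were taken out. Names and types came from GENCODE M21 on GRCm38. Ratios used a pseudocount of 1 and genes averaging 10 or more expected counts. Detection meant 1 TPM. The labels give 1 group, so there was no test. Copies were M21 transcripts outside the genes with at least 95% identity over at least 100 nt and 50% of the copy (blastn 2.17.0). Depth was 56959836 and 35973980 expected counts. The arithmetic was tested on simulated counts. Of each list, at most the 4 genes highest in mean TPM are named, and the paralogs at 0 besides, chosen after their values were seen; some genes of the lists are not reported here. All 45 genes are accounted for. In full are given the 5 highest and 5 lowest, the 5 largest ratios each way and genes of set roles. The genes and lists were chosen with earlier results of these data known. Tools were Python 3.11.15, pandas 2.3.3, R 4.3.3, edgeR 4.0.16 (TMM factors) and DESeq2 1.42.0 (size factors), both on rounded counts and for scaling only. Alternatives are given at the end.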

Additional observations from a re-analysis of the deposited data

How the results depend on the processing

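The median ratio kept its sign under the 12 alternatives run, from -0.85 with edgeR TMM factors to -0.35 with spike-in totals, and the number of lower genes ran from 31 to 43. The background moved with the scaling: genes at 100 TPM or more had a median of -0.15 with TMM factors and 0.36 with spike-in totals. The number of 2-fold lower genes was 8 instead of 13 both with CPM and with spike-in totals, and the number of 2-fold higher genes was 0 instead of 1 when copies were added by either rule and without Rpl5. The summed level was 1.22% with CPM and 3.45% without the 10 genes of highest TPM. The 60S sum over the 40S sum was 1.28 with CPM and 1.502 with copies added to the 60S genes only. The spread among the genes was 0.794 with copies and 1.12 without Rpl5. Rpl22 turned to 0.084 in CPM and Rpl5 to -0.25 with copies summed as TPM. With copies' reads set at the length of Rpl5, which differs between the libraries through its transcripts, Rpl5 stood at 0.97. Of the other genes past 2-fold, Rpl27 stood at -0.31, Rpl12 at -0.50 and Rpl10a at -0.83 with copies summed. From 1 library alone the summed level was 1.96% or 2.91%, the 60S over 40S sum 1.17 or 1.23 and the spread 1.18 or 1.47; ratios between the libraries cannot be had from 1. Adding copies at the gene's own length and leaving out Rpl5 were chosen after seeing the data. No paired analysis was possible because the labels give 1 group only. Depth limits little here, since the lowest value of a gene in the group rests on 270 expected counts. The limits are the 2 livers, the PCR from 13 pg of RNA and the division of reads among copies.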
